A study of Danio rerio with 28 samples.

Results

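The tissue described here is the injured zone of the *thraa*+/- zebrafish ventricle 1 day post injury (1 dpi), compared with the uninjured ventricular apex of the same genotype. These groups held 2 libraries each, and were taken by their labels from the 24 libraries of a time course and the 28 samples of the whole series. The time course covered WT and *thraa*+/- fish, uninjured and at 8 hours post injury (hpi), 1, 3, 7 and 15 dpi, with 2 libraries in each of 12 groups, and the 4 whole-heart samples were not used here. Adult fish of 4 to 6 months had about 20% of the ventricular apex resected, and each library was prepared from the pooled tissue of at least 5 ventricles, so that differences between single fish were averaged. The uninjured fish are described as a control group with no mention of sham surgery. The *thraa*+/- fish carried a *thraa* allele with a short insertion that shifts the reading frame and truncates the encoded receptor, beside a WT allele. The sample labels name the line only as a knockout, and the heterozygous genotype is taken from the description of the series. Both the injured and the uninjured libraries of that line carried the mutation, so the comparison between them sets injured against uninjured tissue within the mutant genotype. The effect of injury cannot be told apart in it from that of the surgery, the pools of fish or the region sampled.

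The product of *thraa* is a thyroid hormone receptor, a transcription factor of the nucleus that is bound by thyroid hormone and regulates genes of metabolism and of cardiac maturation. The adult zebrafish ventricle is known to replace resected muscle. A clot first fills the wound and leukocytes enter the tissue, after which the epicardium and endocardium are activated, and surviving cardiomyocytes divide at later stages. The first day therefore belongs to the inflammatory phase. RNA was measured here in bulk tissue, in which fewer cells of a type and less RNA per cell cannot be told apart.

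Total counts on genes were 14469677 and 14603970 in the uninjured and 17903942 and 15312647 in the 1 dpi libraries, and 13692204 to 18775025 over the time course. Levels within a gene are given in CPM, which are counts scaled to a common library size after TMM normalization. Levels of different genes are compared only in the deposited TPM, transcript levels scaled for gene length and library size. The scaling factors lay between 0.679 and 0.693 in the uninjured libraries and at 1.046 and 1.045 at 1 dpi, and a few abundant muscle and mitochondrial transcripts made up less of the later libraries. The 10 most abundant genes held 31% and 30.6% of the counts without injury and 21.4% and 21.3% at 1 dpi. Transcripts of the mitochondrial genome held 21.9% and 21.2%, and then 12% and 11.9%. Libraries of the same group differed by more than counting error in each group, and the largest excess was between the *thraa*+/- libraries at 8 hpi. Capitalized symbols are those of the annotation, in which zebrafish paralogs often share the human name, and the Ensembl identifier is then given.

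Markers of the ventricular myocardium were abundant in all 4 libraries. *MYL7*, the regulatory myosin light chain of cardiac muscle, stood at 30658 and 29902 TPM without injury and 19787 and 19931 TPM at 1 dpi. The tested markers of fast skeletal muscle, exocrine pancreas and Schwann cells did not exceed 3.87 TPM in any of the 4 libraries. For fast skeletal muscle these were only *myhz2*, *myod1* and the *TNNT3* genes. The wider skeletal muscle list described below summed to 5373 and 5391 TPM without injury and 2431 and 2414 TPM at 1 dpi. Markers of skin were higher, as described below, and of the liver markers the transferrin gene *tfa* reached 32 TPM at 1 dpi. *mpx* and *lect2l* of neutrophils, *pax5*, *hbba1*, *mylpfa*, *fgb*, *mbpa* and *elavl3* were not among the tested genes. The *thraa* transcript itself (annotated as *THRA*, ENSDARG00000000151) was measured at 4.58 and 3.16 CPM in the uninjured and 3.15 and 4.44 CPM in the 1 dpi libraries. These ranges overlapped, and the log2 difference was -0.04 ± 0.27 (standard error, here and below), adjusted p = 0.93. In uninjured WT apex the level was 4.8 and 5.51 CPM. Since the allele is a small insertion in the coding sequence, the level of this transcript does not check the genotype.

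At 1 dpi, 3001 of the 17837 tested genes were higher than in uninjured *thraa*+/- apex, which is 16.8%, and 2470 were lower, which is 13.8%. A gene was called when its adjusted p from edgeR's quasi-likelihood test was below 0.05 and its absolute log2 fold change was at least 1. The p-values rest on the spread between pools of tissue within groups of 2. The median log2 change over all tested genes was 0.0. The counts of called genes in the lists below are to be read beside the shares of 16.8% and 13.8%. Among the genes called higher, 933 had no more than 3 counts in either uninjured library, the largest count that an absent transcript is here taken to allow, and for these only a lower bound of the fold is given. Among the genes called lower, 203 were at that floor at 1 dpi. The split between directions depends on the scaling. When the libraries were scaled by total counts, the median of all genes moved to 0.60, and 5380 genes were higher and 1069 lower. The calls and log2 changes below are relative to the TMM scale, whose median is 0.0. Levels and summed levels in TPM are not on that scale. The change seen in TPM can therefore differ from the log2 change of the same genes. The plot of log2 change against mean level shows both classes across the range of expression.

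**Figure D1:**
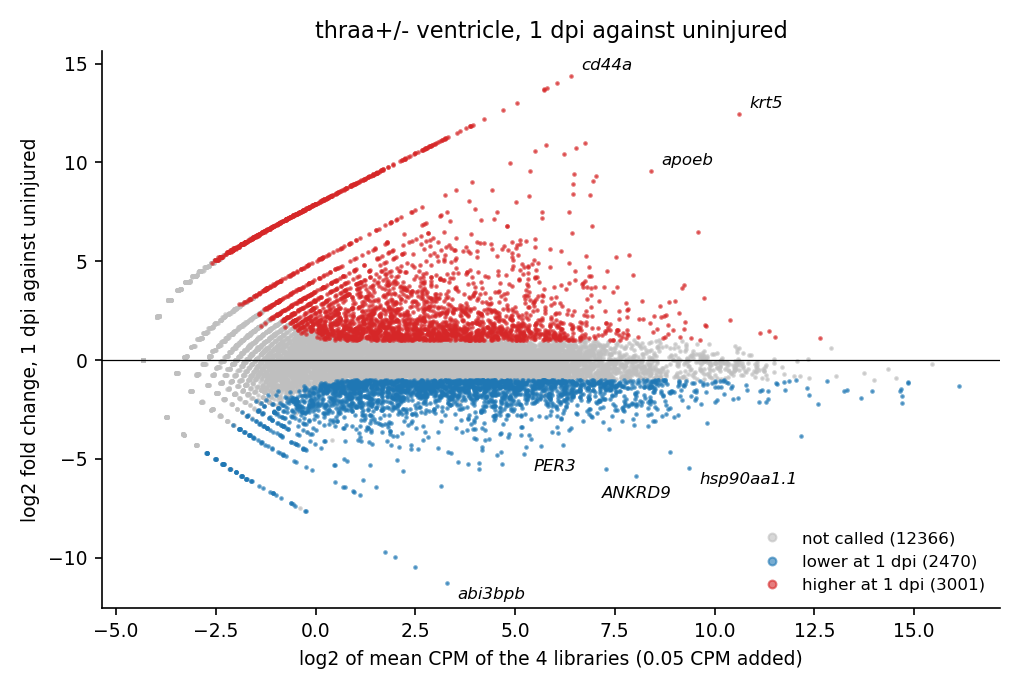
Log2 fold change at 1 dpi against uninjured in *thraa*+/- (vertical axis) against the log2 of the mean CPM of the 4 libraries, with a small value added (horizontal axis), for the 17837 tested genes. Red points are the 3001 genes called higher, blue points the 2470 called lower and grey points the rest. The 7 labelled genes are among those with the largest called changes described in the text, and the curved edges are genes at 0 in a group, whose fitted change depends on the prior count.

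Several of the genes of at least 10 CPM with the largest fitted rises were at 0 in both uninjured libraries, and some of them are epithelial. For such genes the order depends on the prior count of the fit. *cd44a*, a receptor for hyaluronan, was at 0 in both uninjured libraries and at 169 and 169 CPM at 1 dpi, which is at least 561-fold higher. *jac4* was at 129 and 134 CPM against 0, at least 438-fold higher. *epcam*, an adhesion molecule of epithelial cells, was at 107 and 103 CPM against 0, at least 349-fold higher. The groups did not overlap for any of these genes, which the rule that chose them required. Among all 17837 tested genes, the groups did not overlap for 13536. *nppal*, a gene of the natriuretic peptide family, was at 105 and 108 CPM against 0, at least 354-fold higher. The list also held *ntrnl2*, *muc5.2*, *krt97*, *oclna* and *cldna*, the last of which encode a mucin, a keratin, an occludin and a claudin, with means between 29.3 and 66.6 CPM for these 4 against 0 CPM. The largest rise with detected uninjured counts was that of the keratin *krt5*, from 0.81 and 0.3 CPM to 3099 and 3168 CPM, a log2 change of 12.45 ± 0.16.

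The largest falls had no common tissue. *abi3bpb*, an extracellular matrix gene, was at 18.6 and 20.4 CPM without injury and at 0 in both 1 dpi libraries, at least 112-fold lower. *hsp90aa1.1*, a chaperone of muscle myosin in zebrafish, fell from 1274 and 1287 CPM to 30.0 and 28.8 CPM, a log2 change of -5.44 ± 0.081. *ANKRD9* fell from 515 and 506 CPM to 7.53 and 10.4 CPM. *PER3*, a repressor of the circadian clock, fell from 70.1 and 72.7 CPM to 2.83 and 2.44 CPM. *myh6*, an atrial myosin heavy chain, fell from 19.2 and 19.1 CPM to 0.8 and 0.69 CPM, and *SCD*, a fatty acid desaturase, from 21.6 and 18.5 CPM to 0.75 and 0.75 CPM. *cfap70*, *MAF*, *VSNL1* and *LMBR1L* completed the 10 largest falls, with log2 changes between -6.37 and -4.64.

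In TPM, which is relative to each library, the largest gains among the called genes were those of the beta-type globin *HBE1* (ENSDARG00000097238; 2307 and 2225 TPM to 9349 and 9435 TPM), the gene *si:ch211-5k11.8* (5956 and 5902 TPM to 19473 and 19458 TPM) and 3 others. On the normalized scale the log2 changes of these 2 genes were 1.45 ± 0.12 and 1.12 ± 0.084. Globin genes are near-identical copies, among which reads may be split. The globin *hbaa1* had a log2 change of -0.04 and was not called. Of 18 tested erythrocyte genes, 3 were higher and 0 lower, beside 16.8% and 13.8% of all tested genes. The others were *RPS29* of the small ribosomal subunit, the natriuretic peptide *nppb* and *icn*, a small calcium-binding protein gene. The largest losses among the called genes were of the cardiac actin *actc1a* (25069.5 and 25612 TPM to 8160.4 and 8061 TPM) and of 4 genes of the mitochondrial genome. *MT-CO1*, the core subunit of cytochrome oxidase, went from 48610.3 and 47036 TPM to 28711 and 28033 TPM, a log2 change of -1.30 ± 0.068 on the normalized scale.

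Leukocyte genes rose as groups. Of 19 tested neutrophil genes, 17 were higher and 0 lower, with a median log2 change of 2.65, beside 16.8% of all tested genes called higher. *MMP9*, a gelatinase carried in neutrophil granules, rose from 3.66 and 4.94 CPM to 117 and 110.0 CPM. *cybb*, the catalytic subunit of the phagocyte NADPH oxidase, rose from 11.5 and 9.19 CPM to 77.2 and 75.6 CPM. *lyz*, lysozyme, rose from 1.32 and 1.58 CPM to 9.51 and 10.3 CPM. Of the 8 tested oxidase subunits, 6 rose and none fell.

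Of 36 tested macrophage genes, 30 rose and 1 fell, with a median log2 change of 3.66. *apoeb*, an apolipoprotein of lipid-handling phagocytes that is also made by other cells, rose from 1.12 and 0.69 CPM to 683 and 678 CPM, a log2 change of 9.54 ± 0.14. *grna.1*, a granulin precursor, rose from 17.6 and 16.8 CPM to 1523 and 1529 CPM. *marco*, a scavenger receptor, rose from 12.2 and 11.8 CPM to 149.9 and 137 CPM. All libraries of each gene were higher at 1 dpi, but members of a family did not move alike. The pore-forming protein gene *MPEG1* with the identifier ENSDARG00000055290 rose from 7.74 and 9.29 CPM to 53.5 and 57.6 CPM. Its paralog ENSDARG00000043093 was at 12.2 and 8.89 CPM and 11.2 and 10.0 CPM, and was not called. The exception that fell was *cd74a*, the invariant chain of MHC class II, from 187 and 195 CPM to 85.9 and 95 CPM, a call that was lost without uninjured replicate 2 (log2 change of -0.97) and by total counts (-0.47). Among the 14 tested genes of antigen presentation, 3 rose, namely the cathepsins *ctss2.1* and *ctss2.2* and *mhc2dab*. The summed level of the macrophage list was 474 and 479 TPM without injury and 6059 and 6100.0 TPM at 1 dpi, and that of the neutrophil list was 194 and 197 TPM and then 924 and 931 TPM. Of the T, B and NK cell genes, 1 was called higher and 1 lower of 18 tested, and their summed level was 7.45 and 9.18 TPM and 9.59 and 8.88 TPM.

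Secreted inflammatory signals rose with the leukocyte genes. Of 22 tested cytokines, 13 rose and none fell. *il1b*, the main early cytokine of the inflammasome pathway, rose from 1.02 and 1.28 CPM to 44.5 and 46.1 CPM, a log2 change of 5.29 ± 0.23. *il11a*, a cytokine of the interleukin-6 family that signals through STAT3, had no more than 3 counts in either uninjured library and 13.7 and 12.3 CPM at 1 dpi, at least 43.2-fold higher. *m17* and *clcf1*, of the same family, were at 0 CPM in both uninjured libraries and at 2.19 and 2.81 CPM and 2.08 and 2.38 CPM at 1 dpi. *tnfb* rose from 0.51 and 0.4 CPM to 5.88 and 7.44 CPM, while *il6* was at 0 and 0.1 CPM and 0.05 and 0.25 CPM and did not pass the test. *tgfb1a*, at 17.3 and 16.2 CPM and 27.6 and 23.2 CPM, had an adjusted p of 3.53e-05 but stayed below the minimum fold.

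Among the chemokine ligands, 13 of 24 rose and 2 fell, and among their receptors 8 of 15 rose. *ccl34a.4* rose from 0.31 and 1.48 CPM to 166 and 159 CPM. *cxcl8a*, which attracts neutrophils, rose from 0.61 and 0.89 CPM to 15.2 and 15.2 CPM, and *cxcl12b* from 45.4 and 46.8 CPM to 103 and 97.2 CPM. Cytokine receptors and the feedback inhibitors of STAT signalling moved in the same direction. Of the receptors, 8 of 14 rose, and of the inhibitors 4 of 6. *SOCS3* (ENSDARG00000026611), which is induced by STAT3 and restrains it, rose from 27.4 and 27 CPM to 347 and 356 CPM, a log2 change of 3.69 ± 0.078. *STAT3* itself was at 7.43 and 4.35 CPM and 10.6 and 11.9 CPM, adjusted p = 0.137. In the NF-kB list, 7 of 23 rose and 1 fell. The inhibitor genes *nfkbiaa* and *nfkbiab* moved apart, the first from 15.1 and 15.1 CPM to 48.9 and 50.5 CPM and the second from 344 and 360.4 CPM to 89.5 and 88.3 CPM. Complement genes were higher for 10 and lower for 2 of 19 tested, and interferon-response genes higher for 15 and lower for 0 of 35. Examples are *c1qb*, part of the complement initiator C1q (12.5 and 11.7 CPM to 105 and 108 CPM), and the guanylate-binding protein gene *gbp1* (6.72 and 5.93 CPM to 34 and 31.6 CPM).

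**Figure D2:**
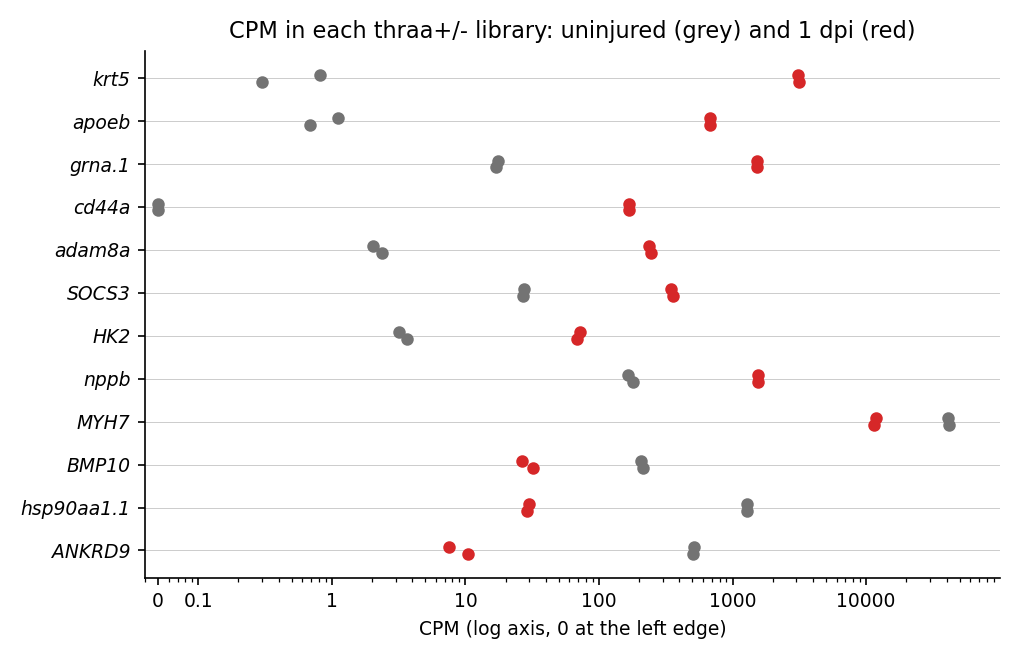
CPM on a log axis of 12 genes named in the text in both uninjured (grey) and both 1 dpi (red) *thraa*+/- libraries, each point a library, with 0 drawn at the left edge. The points of the groups are separate for each gene shown, as they are for 13536 of the 17837 tested genes. Replicates nearly coincide except at the lowest counts.

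Genes of skin and other squamous epithelia had the largest median change of the 54 lists, although such epithelium is not a tissue of the ventricle. Of 42 tested, 34 rose and 2 fell, with a median log2 change of 5.62. Some members, among them *epcam* and *grhl3*, were at 0 CPM in both uninjured libraries and were tested because other groups held them. Their fitted folds depend on the prior count, so that the size of this median and its rank can depend on it too. Besides *krt5* and *epcam*, the claudin *cldni* rose from 0.41 and 0.1 CPM to 183 and 174 CPM, and *PKP1*, a desmosomal protein, was at least 720.0-fold higher, at 209 and 224 CPM. *TP63*, the transcription factor of basal epidermal cells, was detected in both groups and rose from 17.9 and 16.5 CPM to 40.8 and 43.4 CPM. *grhl3*, a transcription factor of surface epithelium, was at 0 CPM in both uninjured libraries and at 3.9 and 3.5 CPM at 1 dpi. The summed level of the list was 1393 and 1449 TPM without injury and 7646 and 7682 TPM at 1 dpi. In WT it was 1884 and 1837 TPM and then 4167 and 4373 TPM. In *thraa*+/- it was 3260.3 and 3405 TPM at 8 hpi, 8445 and 8689.5 TPM at 3 dpi, 7677 and 8327 TPM at 7 dpi and 1769 and 1725 TPM at 15 dpi. *krt5* was at only 4.96 and 4.61 CPM at 7 dpi, so that the sum does not follow this keratin. A single member, *icn*, held 653 and 714 TPM of the sum without injury and 2894 and 2901 TPM at 1 dpi. Collagens, integrins, proteases and actin regulators of the lists below include genes that skin expresses, and the part of such tissue in their changes was not tested.

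Transcripts of matrix genes changed in both directions in the injured zone. Of 37 tested genes of the provisional and matricellular matrix, 15 rose and 9 fell (16 higher and 4 lower by total counts). *FN1* (ENSDARG00000019815), fibronectin, a matrix protein of healing wounds, rose from 18.6 and 17.1 CPM to 219.8 and 227 CPM, a log2 change of 3.64 ± 0.096. *HAS1*, a hyaluronan synthase, rose from 0.2 and 0.49 CPM to 21.7 and 18.3 CPM beside its receptor *cd44a*. *TNC* (ENSDARG00000021948), tenascin, was at least 11.3-fold higher, at 3.63 and 3.19 CPM. *hapln1a*, which links hyaluronan to proteoglycans, fell from 56 and 50.6 CPM to 3.85 and 3.38 CPM, and *POSTN* (ENSDARG00000043806), periostin, from 26.9 and 23.6 CPM to 4.7 and 2.5 CPM. Its paralog ENSDARG00000104267 was at 42.5 and 42.4 CPM and 34.2 and 33.5 CPM, below the minimum fold.

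Collagens split by kind. Of 36 tested, 7 rose and 10 fell, beside 16.8% and 13.8% of all tested genes. By total counts 10 were higher and 9 lower. The 3 chains of collagen VI fell, for example *COL6A2* from 91 and 81 CPM to 20.5 and 21.2 CPM, as did *col18a1b*, a basement membrane collagen, from 47.9 and 44.3 CPM to 3.47 and 3.56 CPM. *col7a1* and *col17a1b*, which anchor epidermis to the dermis, were at 0 CPM in both uninjured libraries and at 18.4 and 19.1 CPM and 30.9 and 27.1 CPM at 1 dpi. *COL12A1* (ENSDARG00000019601), a fibril-associated collagen, was at 13.5 and 15.5 CPM against 0, at least 48.2-fold higher. The abundant fibrillar chain *col1a1a* was at 207 and 193 CPM and 125 and 119.6 CPM, a log2 difference of -0.71 ± 0.068 that stayed below the minimum fold. Decorin, *DCN*, which binds collagen fibrils, fell from 155 and 155 CPM to 45.2 and 48.4 CPM.

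Proteolysis of the matrix and of clots was represented among the risen genes. 10 of 33 tested matrix proteases rose and 4 fell, and 4 of 7 of their inhibitors rose. *adam8a*, a metalloprotease of leukocytes, rose from 2.04 and 2.37 CPM to 239 and 244 CPM, and the collagenase *mmp13a* from 0.51 and 0.3 CPM to 21.4 and 19.9 CPM. *TIMP2* (ENSDARG00000075261), a tissue inhibitor of metalloproteases, rose from 8.96 and 8.2 CPM to 217 and 226 CPM, while its paralog ENSDARG00000061226 was at 66.5 and 63.5 CPM and 36.6 and 38.1 CPM and did not pass the fold threshold. In the plasminogen system 9 of 13 tested genes rose and 1 fell. *plaua*, a urokinase-type plasminogen activator, rose from 0.81 and 0.4 CPM to 36 and 37.1 CPM. *f3b*, a tissue factor gene that starts coagulation, fell from 214 and 222 CPM to 44.7 and 51.3 CPM, and its paralog *f3a* rose from 4.78 and 3.56 CPM to 9.4 and 10.6 CPM.

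Epicardial and fibroblast genes moved in both directions, with 13 higher and 17 lower (8 by total counts) of 50 tested. Among the defining epicardial markers, *ALDH1A2*, which makes retinoic acid, rose from 69.5 and 63.2 CPM to 246 and 241 CPM, and *wt1b* from 0.92 and 0.59 CPM to 9.77 and 7.63 CPM. *TCF21* was at 6.82 and 6.72 CPM and 5.45 and 5.75 CPM and *TBX18* at 3.77 and 4.94 CPM and 2.3 and 2.44 CPM, and neither was called. Integrins, the receptors for matrix, were higher for 13 and lower for 4 of 26 (14 higher and 0 lower by total counts). *itga6b*, the alpha 6 subunit, rose from 3.97 and 2.17 CPM to 89.4 and 95 CPM, and *itgb2*, the common chain of leukocyte integrins, from 20.9 and 20.6 CPM to 69.2 and 70.8 CPM. Of the actin and migration genes, 34 of 75 rose and 8 fell (3 lower by total counts). *CAPG*, which caps actin filaments, rose from 4.89 and 6.32 CPM to 212 and 217 CPM, and *CORO1A*, an actin-binding protein of leukocytes, from 13.6 and 16 CPM to 195 and 193 CPM. *cfl1l*, a cofilin-like gene, rose from 0 and 0.89 CPM to 243 and 251 CPM.

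**Figure D3:**
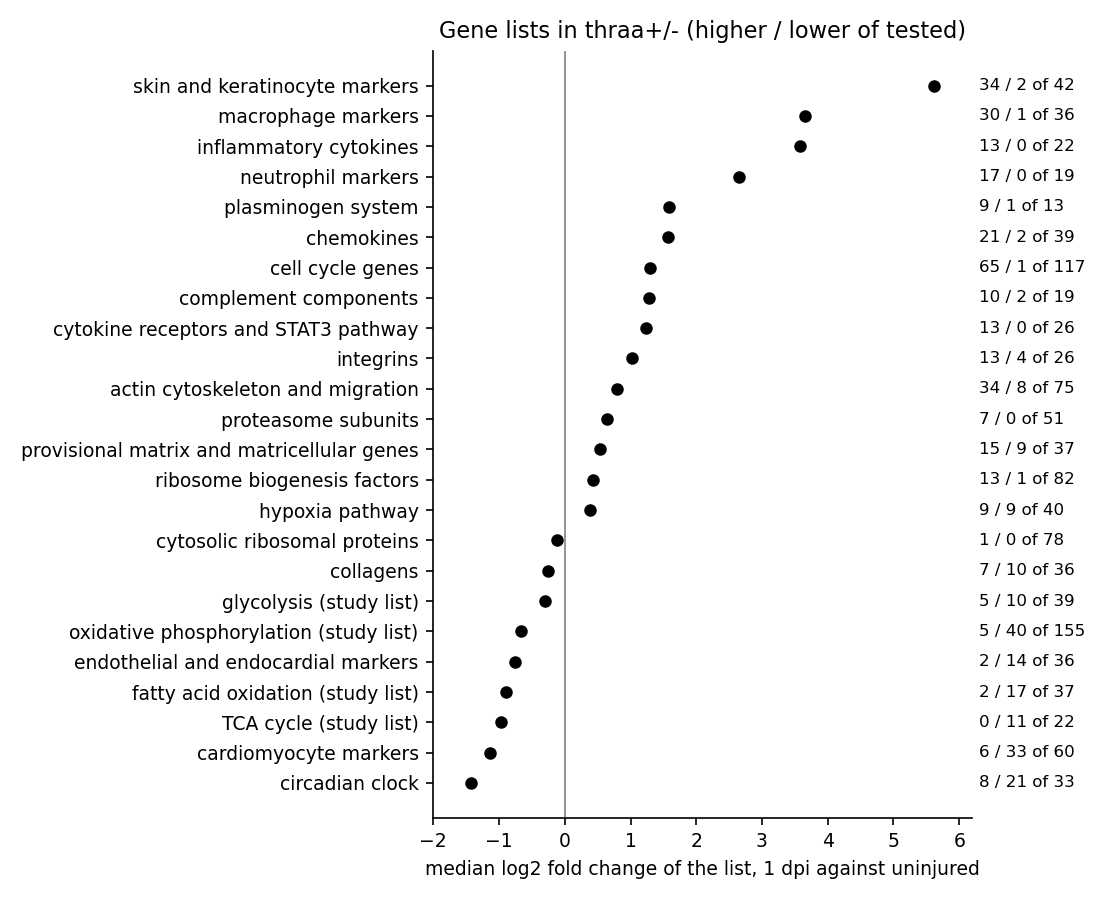
Median log2 fold change at 1 dpi against uninjured in *thraa*+/- for 24 of the gene lists (points, horizontal axis), with the number of tested members called higher and lower and the number tested printed at the right. The vertical line is the median of all tested genes, 0.0. Inflammatory and epithelial lists lie to the right and contractile and oxidative lists to the left. By total counts the medians of the collagens, glycolysis and ribosomal proteins lay above 0, at 0.08, 0.30 and 0.49.

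Genes of cell division were already higher at 1 dpi. Of 117 tested cell cycle genes, 65 rose and 1 fell, with a median log2 change of 1.29. Genes of G2 and M phase were higher for 38 of 51 and those of G1 and S phase for 21 of 50. Levels of the mitotic genes were low. *CDK1*, the mitotic kinase, rose from 1.02 and 1.88 CPM to 7.64 and 8.69 CPM, and *mki67*, a marker of cycling cells, from 1.63 and 1.98 CPM to 9.29 and 6.31 CPM. *RRM2* (ENSDARG00000020711), which makes deoxynucleotides, rose from 6.41 and 5.53 CPM to 25.5 and 29.1 CPM. *PCNA*, the sliding clamp of DNA replication, was at 33.7 and 45.4 CPM and 79.6 and 78.1 CPM and stayed just below the minimum fold (above it, at 1.02 to 1.60, in 10 of the alternatives, among them total counts and without uninjured replicate 2), and *CCND1*, the G1 cyclin D1, was at 12.1 and 12.3 CPM and 14.1 and 15.1 CPM. These values do not say which cells divided.

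On the TMM scale, the lists of ribosomal genes and of proteasome subunits held a smaller share of called genes than all tested genes did. Of 82 ribosome biogenesis factors, 13 rose and 1 fell, beside 16.8% and 13.8% of all tested genes, and the median was 0.43. *DKC1*, the pseudouridine synthase of small nucleolar particles, rose from 13.7 and 13.5 CPM to 48.4 and 45.6 CPM, and *FBL*, the nucleolar methyltransferase fibrillarin, from 41.3 and 40.7 CPM to 98 and 97.4 CPM. Of the 78 cytosolic ribosomal proteins only *RPS29* was called (6 genes by total counts), and of 51 proteasome subunits 7 rose. By total counts, 44 biogenesis factors and 40 proteasome subunits were called higher. Chaperones of the endoplasmic reticulum rose, with 13 higher and 3 lower of 37 in the list of the unfolded protein response (24 and 2 by total counts). *PDIA4*, a disulfide isomerase, rose from 26.8 and 24.2 CPM to 106 and 102 CPM, and *HSP90B1* from 119.8 and 111 CPM to 285 and 267 CPM. The members that fell, *CHAC1*, *TRIB3* and *DDIT4*, are known as targets of the transcription factor ATF4 and of stress. *CHAC1*, which degrades glutathione, fell from 1336 and 1324 CPM to 289 and 284 CPM, and *TRIB3* from 346 and 350.1 CPM to 66.1 and 64.6 CPM. Cytosolic heat shock proteins and their cofactors fell for 16 of 35 tested genes and rose for 1.

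Contractile genes of cardiomyocytes were lower. Of 53 tested ventricular genes, 29 fell and 4 rose, with a median log2 change of -1.11, beside 13.8% of all tested genes called lower. Under scaling by total counts, 18 of the 60 ventricular and atrial genes were called lower in place of 33. *MYH7* (ENSDARG00000079782), the ventricular myosin heavy chain *vmhc*, fell from 40793 and 41568 CPM to 11763 and 11443 CPM, a log2 change of -1.83 ± 0.069. *MYBPC3*, which binds myosin in the thick filament, fell from 8211 and 8095 CPM to 2423 and 2389 CPM, and *RYR2*, the calcium release channel, from 398 and 421 CPM to 118 and 111 CPM. *MYL7* and the troponin gene *TNNT2* (ENSDARG00000020610) had log2 differences of -0.93 ± 0.074 and -0.79 ± 0.082, with adjusted p of 1.66e-14 and 6.59e-11, and did not reach the minimum fold. The summed level of the ventricular and atrial genes was 151466 and 153004 TPM without injury and 120516 and 120276 TPM at 1 dpi. The skeletal muscle list, which shares no gene with this list, held 43 tested genes and had 18 lower and 3 higher at 1 dpi (13 and 6 by total counts) and summed to 5373 and 5391 TPM and then 2431 and 2414 TPM, most of it without injury from the actin gene *ACTA1* (ENSDARG00000055618, 4103 and 4135 TPM).

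Several stress-responsive genes of cardiomyocytes moved the other way. *nppb*, a natriuretic peptide induced by load, rose from 166 and 179 CPM to 1545 and 1543 CPM, a log2 change of 3.16 ± 0.084, and *nppa* from 1832 and 1739 CPM to 4007 and 4072 CPM. *nppc* rose from 0.51 and 0.59 CPM to 33.9 and 34.1 CPM, and *ANKRD1* (ENSDARG00000075263), a sarcomeric stress protein, from 0.92 and 0.49 CPM to 103 and 101 CPM. *DES*, the muscle intermediate filament desmin, was at 1114 and 1098 CPM and 1782 and 1818 CPM, below the minimum fold. Of the atrial genes, 4 of 7 fell and 2 rose, and those that fell included *myh6* and the *MYH6* gene ENSDARG00000079564, from 756 and 716 CPM to 249 and 253 CPM. Of the cardiac transcription factors 5 of 19 fell (2 by total counts), including *GATA6* (78.9 and 78.3 CPM to 20.3 and 19.2 CPM), while *HAND2* was at 105 and 109 CPM and 125 and 128 CPM. The summed level of the atrial genes was 85.5 and 83.1 TPM and then 84.6 and 85.3 TPM. The ion channel list held 11 lower and 2 higher of 26, and by total counts 7 lower and 4 higher. *kcnh6a*, the potassium channel of cardiac repolarization in zebrafish, rose from 126 and 128 CPM to 579 and 601 CPM, and *CACNA1G*, a T-type calcium channel, fell from 37.9 and 41.1 CPM to 5.07 and 5.31 CPM. The actin gene *ACTA1* (ENSDARG00000055618) fell from 8649 and 8492 CPM to 611 and 592 CPM.

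Genes of oxidative energy metabolism were lower, as were the contractile genes, in the lists that the study took for these pathways from the mitoXplorer database. The tricarboxylic acid cycle list had 11 of 22 lower and none higher. Fatty acid oxidation had 17 of 37 lower and 2 higher, pyruvate metabolism 14 lower and 1 higher of 26, and oxidative phosphorylation 40 lower and 5 higher of 155. *CS*, citrate synthase, fell from 1360.5 and 1338 CPM to 616 and 607 CPM, and *CPT1B*, which admits fatty acids to mitochondria, from 183 and 188 CPM to 48.2 and 45.1 CPM. *PDK2* (ENSDARG00000059054), a kinase that inhibits pyruvate dehydrogenase, fell from 496 and 479 CPM to 131 and 123 CPM. *NDUFS1* of complex I fell from 1186 and 1178 CPM to 477 and 494 CPM, whereas *ATP5F1B* of ATP synthase, at 6936 and 6807 CPM and 3702 and 3695 CPM, had a log2 difference of -0.89 ± 0.07 and was not called. The median log2 changes of these 4 lists lay between -1.07 and -0.66, beside -1.11 for the ventricular genes. These calls depended on the scaling. By total counts, 0 tricarboxylic acid cycle genes, 3 of fatty acid oxidation, 3 of pyruvate metabolism and 8 of oxidative phosphorylation were called lower. The medians of these lists in that order were -0.36, -0.28, -0.46 and -0.05, beside 0.60 for all genes under that scaling. *CS*, *NDUFS1* and *MT-CO1* were then at log2 changes of -0.53, -0.68 and -0.70 and were not called. The mitophagy list had 4 lower and 1 higher of 20, and by total counts 1 lower and 2 higher, which turns the direction. *ATG5* was at 21.5 and 21.2 CPM and 22.3 and 22.6 CPM and *BECN1*, both of autophagosome formation, at 11.8 and 13.9 CPM and 15.3 and 16.6 CPM. The mitochondrial phosphatase gene *PGAM5* and *TBC1D15* had log2 differences of 0.24 ± 0.081 and 0.30 ± 0.098, below the minimum fold. *FKBP2*, a prolyl isomerase of the endoplasmic reticulum, rose from 10.1 and 8.4 CPM to 51.9 and 52.5 CPM.

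Single genes of glucose uptake and of the pentose phosphate pathway rose. In the glycolysis list 5 of 39 were higher and 10 lower, and by total counts 9 were higher and 3 lower. *HK2*, the hexokinase that traps glucose, rose from 3.16 and 3.66 CPM to 71.5 and 69 CPM, a log2 change of 4.36 ± 0.13, and the glucose transporter *slc2a3b* from 5.5 and 4.05 CPM to 44.8 and 46.3 CPM. *slc2a3a* was at 0 CPM in the uninjured libraries and at 3.53 and 2.88 CPM at 1 dpi. *SLC2A1* (ENSDARG00000001437), another glucose transporter, fell from 2.65 and 2.67 CPM to 0 and 0.06 CPM. *PGD* and *TALDO1*, enzymes of the pentose phosphate pathway, rose by 1.39 ± 0.09 and 1.58 ± 0.088 on the log2 scale. *TKT* (ENSDARG00000029689), transketolase, fell from 2.95 and 3.85 CPM to 0.91 and 0.56 CPM. The lactate dehydrogenase gene *LDHA* was at 1493 and 1444 CPM and 1887 and 1839 CPM, below the minimum fold.

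The subunits of hypoxia-inducible factors (HIFs), which activate genes of glycolysis and angiogenesis under low oxygen, were called higher in none of 7 tested genes and lower in 4. *HIF1A* (ENSDARG00000034293) was at 262 and 251 CPM and 256 and 252 CPM, adjusted p = 0.864. *EPAS1* (ENSDARG00000057671), HIF-2 alpha, fell from 212 and 233 CPM to 55.4 and 49.8 CPM, and its paralog ENSDARG00000008697 from 58.3 and 58 CPM to 12.3 and 12 CPM. *hif1al* fell from 204 and 193 CPM to 57.9 and 55.1 CPM, and *hif1aa* from 28.5 and 38 CPM to 11.6 and 10.8 CPM. HIF protein is regulated mainly by its stability, which these data do not measure. *EGLN3*, a prolyl hydroxylase that marks HIF subunits for degradation and is itself a target of HIF, rose from 11.1 and 11.9 CPM to 92.5 and 90.4 CPM. Of the 26 tested HIF targets, 8 rose and 5 fell. The whole hypoxia list had 9 higher and 9 lower genes, and by total counts 17 and 6. The angiogenic factor *VEGFA* (ENSDARG00000034700) was at 326 and 311 CPM and 495 and 499 CPM, below the minimum fold.

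In the thyroid hormone list, 2 genes rose and 3 fell of 21 tested, beside 16.8% of all tested genes called higher and 13.8% called lower. These counts were near or below those shares, and the members are described singly. *SLC16A10*, a transporter of thyroid hormone and aromatic amino acids, rose from 5.6 and 4.45 CPM to 15.6 and 18.6 CPM. *KLF9*, a transcription factor induced directly by thyroid hormone and also by glucocorticoids, fell from 39.1 and 43.6 CPM to 10.8 and 11.4 CPM. *NCOR1*, a corepressor of unliganded thyroid hormone receptors, fell from 173 and 166 CPM to 73.4 and 75.8 CPM. The receptor gene *THRB* was at 19.7 and 14.2 CPM and 10.8 and 8.5 CPM and *DIO1*, a deiodinase, at 35.6 and 40.5 CPM and 21.2 and 20.2 CPM, both below the minimum fold.

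Immediate early genes, which respond within minutes to many stimuli including handling of tissue, were more often lower than higher at 1 dpi, though not when scaled by total counts (11 lower and 16 higher). Of 50 tested, 20 fell and 13 rose. *JUN* fell from 487 and 462 CPM to 110.0 and 106 CPM, *ATF3* from 442 and 441 CPM to 55.1 and 55.7 CPM and *NR4A1* from 664 and 646 CPM to 81.1 and 75.6 CPM. Without injury, 13 of the 50 were called higher in *thraa*+/- than in WT and 2 lower, beside 11.5% of all tested genes called in either direction. In uninjured WT, *ATF3* was at 257 and 257 CPM and *NR4A1* at 287 and 298 CPM. Not all members fell at 1 dpi. *JUNB* (ENSDARG00000074378) rose from 47.1 and 44.5 CPM to 256 and 261 CPM. *CEBPB*, a factor of acute inflammation, rose from 78.1 and 72.2 CPM to 316 and 318 CPM, and *HBEGF*, a ligand of the EGF receptor, from 0.92 and 0.4 CPM to 27.8 and 29.3 CPM. The circadian list held 21 lower and 8 higher genes of 33. Beside *PER3*, the repressor *NR1D2* fell from 238 and 224 CPM to 37.7 and 33.8 CPM and *PER1* (ENSDARG00000056885) from 30.5 and 28.3 CPM to 2.46 and 1.31 CPM. The activator *BMAL1* (ENSDARG00000006791) rose from 4.48 and 6.82 CPM to 34.1 and 33.4 CPM, and *nfil3-5* from 3.56 and 3.56 CPM to 78 and 74 CPM. The hour of the day at which each group was collected is not given in the sources used here, so that time of day and injury cannot be told apart for these genes.

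Endothelial and endocardial genes were lower for 14 (6 by total counts) and higher for 2 of 36. *klf2a*, a factor induced by blood flow, fell from 382 and 378 CPM to 80.4 and 78.3 CPM, *plvapa* from 45.1 and 40.7 CPM to 7.58 and 6.56 CPM and *NFATC1*, an endocardial factor of valve development, from 36.2 and 32.8 CPM to 8.71 and 7.63 CPM. The defining markers *kdrl*, *cdh5* and *pecam1a* had log2 differences of -0.95 ± 0.07, -0.69 ± 0.068 and -0.58 ± 0.12 and were not called. Secreted growth factors were lower more often than higher, with 22 and 6 of 54 tested FGF, BMP, TGF-beta and Wnt ligands (16 and 11 by total counts). *BMP10* (ENSDARG00000109233), which is made by cardiomyocytes, fell from 206 and 212 CPM to 26.6 and 31.9 CPM, and the activin subunit *INHBB* from 67.7 and 64 CPM to 5.88 and 6.56 CPM. *NRG1* (ENSDARG00000104314), a mitogen of zebrafish cardiomyocytes, was low and rose from 0.1 and 0.4 CPM to 1.39 and 1.25 CPM, a call that was lost without uninjured replicate 1 (log2 change of 1.80). *MDK* (ENSDARG00000036036), midkine, rose from 43.4 and 42.3 CPM to 202 and 201 CPM, and *edn1*, endothelin, from 1.83 and 2.17 CPM to 14.4 and 12.5 CPM.

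The response at 1 dpi was set against that of WT, which was measured in the same way with 2 libraries at each of these stages. In WT, 2633 genes were higher and 1927 lower, 14.8% and 10.8% of those tested. Of the genes called in *thraa*+/-, 1699 of 3001 were called higher in WT too and 1208 of 2470 called lower, and 59 genes were called in opposite directions. The difference between the changes was tested directly, as the interaction of genotype and injury. Genes at 0 CPM in the uninjured libraries of both genotypes had no usable standard error for it (2.9e+03 for *cd44a*), so that it could not call them. The change was more positive in *thraa*+/- for 1036 genes, 5.81%, and more negative for 915, 5.13%. Most of these genes were not called different between the genotypes at 1 dpi itself. Of all tested genes, 11.5% were called different between the genotypes without injury and 7.59% at 1 dpi. Among the 1036, the level was called different between genotypes without injury only for 512, at 1 dpi only for 172, at both for 89 and at neither for 263. Among the 915 the numbers were 407, 142, 50 and 316 in that order. Genotype and pool of fish cannot be told apart in any of these differences.

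The natriuretic peptide genes named here were of the first kind, in which the level was called different without injury only. *nppb* was at 166 and 179 CPM in uninjured *thraa*+/- but at 1285 and 1250.5 CPM in uninjured WT, and at 1545 and 1543 CPM and 1601 and 1677 CPM at 1 dpi, an interaction of 2.79 ± 0.11. *nppc* was at 0.51 and 0.59 CPM and 16.7 and 15.9 CPM without injury and at 33.9 and 34.1 CPM and 17.3 and 19.8 CPM at 1 dpi, an interaction of 5.74 ± 0.3. *nppal*, at 0 in both uninjured *thraa*+/- libraries, was at 1.8 and 2.81 CPM in uninjured WT and at 159.9 and 168 CPM in WT at 1 dpi. Its level at 1 dpi was lower in *thraa*+/- by a log2 difference of -0.62 ± 0.091, adjusted p = 1.78e-06, which stayed below the minimum fold. *EGLN3* was of this kind too, with 69.7 and 67.6 CPM in uninjured WT and 55 and 56.6 CPM at 1 dpi, against a rise in *thraa*+/-, an interaction of 3.29 ± 0.14. *VEGFA* (ENSDARG00000034700) was at 533 and 543 CPM and 340.5 and 322 CPM in WT, an interaction of 1.34 ± 0.096, though its level was called different between genotypes at neither stage. Of the 40 genes in the hypoxia list, 14 had a more positive and 5 a more negative change in *thraa*+/-, beside 5.81% and 5.13% of all tested genes.

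**Figure D4:**
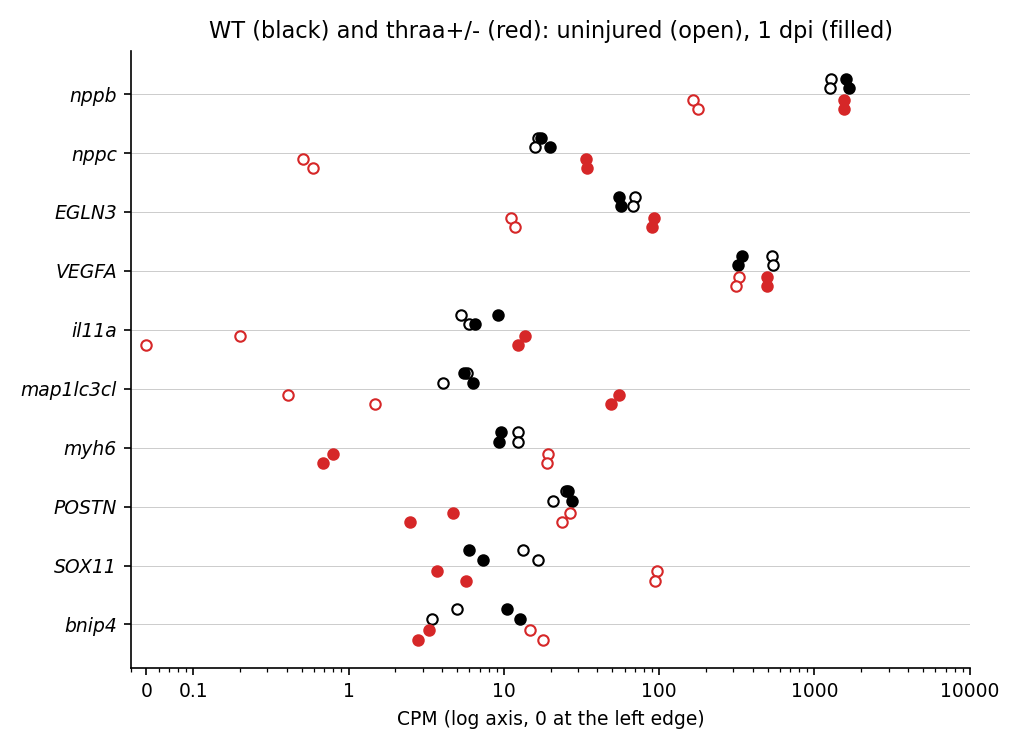
CPM on a log axis of 10 genes whose change at 1 dpi differed between *thraa*+/- (red) and WT (black), without injury (open points) and at 1 dpi (filled points). Each point is a library and 0 is drawn at the left edge, and the points of *nppb* lie apart between the genotypes without injury and close together at 1 dpi.

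*il11a* was at 5.3 and 5.93 CPM in uninjured WT and at 9.21 and 6.49 CPM in WT at 1 dpi, so that it was detected before injury only in WT. *EDNRB* (ENSDARG00000053498), an endothelin receptor, was at 20.8 and 24.5 CPM at 1 dpi in *thraa*+/- and at 3.72 and 3.13 CPM in WT, from at most 3 counts in *thraa*+/- and 0.6 and 1.25 CPM in WT without injury. *map1lc3cl*, an autophagy gene, was at 0.41 and 1.48 CPM and 55.1 and 48.8 CPM in *thraa*+/- and at 5.8 and 4.06 CPM and 5.55 and 6.32 CPM in WT, an interaction of 5.49 ± 0.43. *fbxl3l*, *serpinb1l4* and *evpla*, the last a gene of the epidermal envelope, were at 0 in both uninjured *thraa*+/- libraries and completed the 8 genes with the most positive fitted difference among those of at least 10 CPM in the higher group and without overlap between the stages in at least 1 of the genotypes. Their mean levels at 1 dpi were 13.2, 23.2 and 13.8 CPM in *thraa*+/- and 2.28, 6.03 and 2.92 CPM in WT. Since these genes lie at the floor without injury, the size of the fitted difference depends on the prior count.

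Differences in the other direction, by the same criteria, were led by *abi3bpb*, at 11.9 and 11.6 CPM in uninjured and 1.18 and 1.68 CPM in 1 dpi WT libraries against 0 at 1 dpi in *thraa*+/-. *myh6* was at 12.4 and 12.4 CPM and 9.66 and 9.33 CPM in WT, where it did not change by the test, an interaction of -4.28 ± 0.3. *POSTN* (ENSDARG00000043806) was at 25.3 and 20.7 CPM and 26.1 and 27.4 CPM in WT, an interaction of -2.99 ± 0.2, and its paralog ENSDARG00000104267 had one of the opposite sign, 1.69 ± 0.11. *SOX11* (ENSDARG00000095743), a developmental transcription factor, fell from 96.6 and 93.8 CPM to 3.74 and 5.69 CPM in *thraa*+/- and was at 13.3 and 16.6 CPM and 5.94 and 7.3 CPM in WT, an interaction of -3.18 ± 0.25. *bnip4* rose in WT from 5 and 3.43 CPM to 10.4 and 12.8 CPM and fell in *thraa*+/- from 14.8 and 18 CPM to 3.31 and 2.81 CPM, an interaction of -3.87 ± 0.3. *cfap70*, *MAT1A* and *herc56.3* completed the 8, with interactions of -5.26 ± 1.1, -3.31 ± 0.59 and -3.30 ± 0.52. *cfap70* was near 0 in all 4 WT libraries.

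Some lists differed between the genotypes in how many members changed more. Macrophage genes had a more positive change in *thraa*+/- for 19 of 36 and a more negative change for none, and 13 of the 36 were lower in uninjured *thraa*+/- than in uninjured WT, while at 1 dpi 7 were higher and 1 lower. Skin genes had a more positive change for 13 of 42, and 31 of the list were higher in *thraa*+/- than in WT at 1 dpi, with none lower. Members at 0 CPM in the uninjured libraries of both genotypes, such as *epcam* (interaction of 1.53 ± 2.5e+03), could not count among the 13, whatever their levels at 1 dpi. Smooth muscle and mural genes had a more positive change for 11 of 27. Of that list, 10 were lower and 2 higher than in WT without injury, and 1 was lower and 2 higher at 1 dpi. Cell cycle genes had 8 more positive and 2 more negative of 117, tricarboxylic acid cycle genes none of 22 in either direction, and ventricular genes 3 and 1 of 53. Over all tested genes the change was more positive in *thraa*+/- for 5.81% and more negative for 5.13%. The more positive counts of cell cycle and ventricular genes lay near the first of these shares. Of all tested genes, 5.79% were lower in *thraa*+/- than in WT without injury, and at 1 dpi 4.9% were higher and 2.69% lower.

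Within *thraa*+/-, the 1 dpi tissue was also set between its neighbours in time by direct comparisons that use no uninjured library. Against 8 hpi, 1121 genes were higher at 1 dpi, 6.28%, and 1081 lower, 6.06%. From 1 to 3 dpi, 1283 genes were higher at 3 dpi, 7.19%, and 653 lower, 3.66%. Of the 3001 genes higher at 1 dpi than without injury, 1870 were called in neither step. A further 180 were higher at 1 dpi than at both neighbouring times, and 237 differed from 8 hpi by no call but were lower at 3 dpi. Of the 2470 lower genes, 1714 were called in neither step and 103 were lower at 1 dpi than at both neighbouring times.

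Some of the largest differences from 8 hpi rested on transcripts that were present or absent at 8 hpi. *mhc1uba*, an MHC class I gene, was at 357 and 389.9 CPM at 8 hpi and at 0 CPM in the uninjured and 1 dpi *thraa*+/- libraries. *mhc2dab*, *FIBIN* (ENSDARG00000039949) and the *GGACT* genes ENSDARG00000038248 and ENSDARG00000070581 were at 0 CPM in both libraries at 8 hpi and at 60.9 and 58, 12 and 11.7, 36.1 and 33.7 and 22.6 and 23.1 CPM at 1 dpi. Among the *thraa*+/- groups, 3 genes had no more than 3 counts in both libraries at 8 hpi but at least 10 CPM in each library of the other 5 groups, namely *mhc2dab* and both *GGACT* genes, and no other group of either genotype had such a gene. In the other direction, genes of at least 10 CPM in each library of a group and at the floor in the other groups of its genotype were *gig2l* in *thraa*+/- at 1 dpi (17.5 and 15.9 CPM), *mhc1uba* in *thraa*+/- at 8 hpi, *F13A1* (ENSDARG00000094832) in *thraa*+/- at 7 dpi and *mhc1uba*, *myrfl* and *fabp1b.2* in WT at 8 hpi. These genes were chosen after their values were seen. The part of the genetic background of the pooled fish in them was not tested, and the comparison of 1 dpi with 8 hpi rests on these pools. Without replicate 2 at 8 hpi the number of genes lower at 1 dpi was 1317, and without replicate 1 it was 766, beside 1081 with both.

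**Figure D5:**
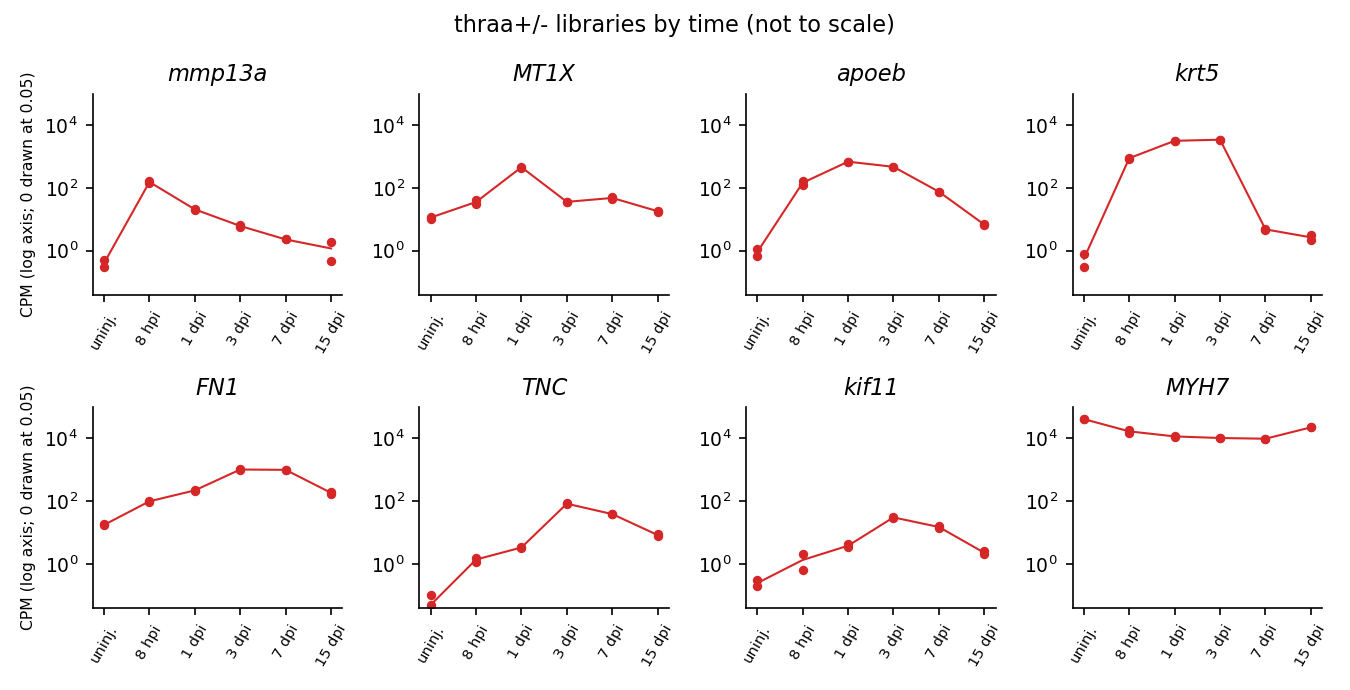
Mean CPM on a log axis of 8 genes in the *thraa*+/- groups without injury and at 8 hpi, 1, 3, 7 and 15 dpi, in order of time but not to scale, with each library as a point and the line through the group means. *mmp13a* is highest at 8 hpi, *MT1X* is highest at 1 dpi, and *FN1*, *TNC* and *kif11* rise further by 3 dpi.

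Of 19 neutrophil genes, 6 were lower at 1 dpi than at 8 hpi and 1 higher, and 5 were lower at 3 dpi than at 1 dpi and 0 higher. The summed level of the list was 1299 and 1273 TPM at 8 hpi, 924 and 931 TPM at 1 dpi and 657 and 650.3 TPM at 3 dpi, so that it was highest at 8 hpi. *mmp13a* was at 143 and 164 CPM at 8 hpi, 21.4 and 19.9 CPM at 1 dpi and 6.44 and 5.83 CPM at 3 dpi, and *lyz* at 58.9 and 87 CPM at 8 hpi. Of 36 macrophage genes, 13 were higher than at 8 hpi and 3 lower, and 9 were higher at 3 dpi than at 1 dpi and 5 lower. *apoeb* was at 126 and 164 CPM at 8 hpi and 467 and 466 CPM at 3 dpi. Skin genes were higher at 1 dpi than at 8 hpi for 24 of 42, and 14 were lower at 3 dpi than at 1 dpi. Other genes were higher at 1 dpi than at both neighbouring times, 180 of them among the genes called higher than without injury. One was *MT1X* (ENSDARG00000041623), a metallothionein that binds zinc, at 12.2 and 10.5 CPM without injury, 31.1 and 39.9 CPM at 8 hpi, 439.8 and 467 CPM at 1 dpi and 35 and 36.6 CPM at 3 dpi. Another was *il13ra2*, a decoy receptor for interleukin-13, at 6.83 and 8.09 CPM at 8 hpi, 33.4 and 31.3 CPM at 1 dpi and 2.57 and 3.57 CPM at 3 dpi. *muc5.2* and *AGR2*, a mucin and a chaperone of mucin-secreting cells, fell from 65.5 and 67.8 CPM and 44.3 and 49.2 CPM at 1 dpi to 0.62 and 1.73 CPM and 3.24 and 2.84 CPM at 3 dpi.

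Many genes of matrix synthesis and of mitosis were higher at 3 dpi than at 1 dpi. From 1 to 3 dpi, 21 of 36 collagens, 19 of 31 collagen processing enzymes and 31 of 50 epicardial and fibroblast genes rose. *TNC* reached 81 and 87.3 CPM and *FN1* 1031 and 1026 CPM at 3 dpi. *COL11A1* (ENSDARG00000026165), a minor fibrillar collagen, rose from 1.66 and 1.56 CPM to 40.6 and 41.2 CPM, and *LUM*, the proteoglycan lumican, from 0.37 and 0.38 CPM to 24.9 and 22.9 CPM. Genes of G2 and M phase rose for 48 of 51, for example *kif11*, a spindle motor, from 4.33 and 3.44 CPM to 30.0 and 31.7 CPM.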

How the data were processed

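RNA-seq libraries of the ventricular apex or injured zone were prepared by the authors from pools of fish, trimmed with Trim Galore 0.6.10, aligned to GRCz11 with STAR 2.7.9 and quantified with RSEM 1.3.3. The annotation release is not given in the sources used here. The deposited expected counts are RSEM estimates per gene that need not be whole, and they were rounded before testing. The deposited TPM values were scaled by the authors for length and depth within each library. The authors tested with DESeq2 1.42.0.

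All 24 time-course libraries were fitted together in 12 groups, without covariates, so that groups of 2 shared an estimate of the spread. Genes were filtered with filterByExpr, which left 17837 of 32520, libraries were scaled by TMM, and contrasts were tested with robust edgeR 4.0.16 quasi-likelihood fits in R 4.3.3, two-sided, with Benjamini-Hochberg adjustment over all tested genes. Every adjusted p in the text comes from this test. A fold against a group with no more than 3 counts in each library is a lower bound, computed against a level of 3 counts in each library. Of 29201 listed identifiers with a symbol, 2217 matched the 54 gene lists and 1962 of these were tested. Where the annotation gives paralogs only a shared symbol, each identifier with that symbol entered the list. This held for 290 entries of the lists, and such paralogs are counted as separate members. The lists were described by counts and medians, and no set test was run.

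The comparison, the lists and the alternatives were chosen with earlier results of these data known. Genes were named by rule. The rule took the 10 called genes with the largest change in each direction, of at least 10 CPM and without overlap between groups, the 5 with the largest change in TPM in each direction, and up to 5 called members of each list. It also took members whose role is described, *thraa*, the HIF subunits, genes that the study discusses for this stage, and the leading genes of the other contrasts. Other named genes, and those used as examples in the plots, were chosen after their values were seen. The alternatives were scaling by total counts, DESeq2, 2 other filters on low counts, a fit of only the compared libraries, a replicate block, limma 3.58.1 on log2(TPM + 1) and log2(TPM + 0.1), no minimum fold, and leaving out each library. The fit was checked on simulated counts without a broad shift in composition, so that this does not check the choice of scaling. Promoter sequences and whole-heart samples were not analysed here, and a few genes are not reported here.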

Additional observations from a re-analysis of the deposited data

Results flagged for a closer look

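The change at 1 dpi differed between *thraa*+/- and WT, by the test of the interaction itself (edgeR's quasi-likelihood test, adjusted p under 0.05 and an absolute log2 difference of at least 1), for 1036 genes in the positive and 915 in the negative direction. The differences below are *thraa*+/- minus WT on the log2 scale, with 2 libraries in each of the 4 groups.

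Positive differences among the genes named were 8.25 for *fbxl3l*, 7.55 for *nppal*, 6.72 for *EDNRB*, 6.43 for *il11a*, 6.28 for *serpinb1l4* and 6.02 for *evpla*, all of which had no more than 3 counts in each uninjured *thraa*+/- library, so that these sizes depend on the prior count. They were 5.74 for *nppc*, 5.49 for *map1lc3cl*, 3.29 for *EGLN3*, 2.79 for *nppb*, 1.69 for *POSTN* (ENSDARG00000104267) and 1.34 for *VEGFA* (ENSDARG00000034700).

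Negative differences were -8.24 for *abi3bpb*, which was at 0 in *thraa*+/- at 1 dpi so that its size depends on the prior count too, -5.26 for *cfap70*, -4.28 for *myh6*, -3.87 for *bnip4*, -3.31 for *MAT1A*, -3.30 for *herc56.3*, -3.18 for *SOX11* (ENSDARG00000095743) and -2.99 for *POSTN* (ENSDARG00000043806).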

How the results depend on the processing

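For 1 dpi against uninjured, scaling by total counts gave 5380 genes higher and 1069 lower, limma on log2(TPM + 0.1) gave 4781 and 1075, and limma on log2(TPM + 1) gave 576 lower, beside 3001 and 2470. At least 10 counts in every library, which tests fewer genes, left 1385 higher and 1437 lower, 690 and 575 for the difference from WT, 390 and 479 for 1 dpi against 8 hpi and 515 and 193 for 3 against 1 dpi. With log2(TPM + 1), 263 genes had a more negative change than WT, 544 and 311 were higher and lower at 1 dpi than at 8 hpi, and 665 and 301 at 3 than at 1 dpi. Without a minimum fold the counts in the same order of comparisons were 4742 and 4877, 2073 and 1960, 2884 and 3266, and 2711 and 2680. The other counts, 86 of 112 alternative values, stayed within 1.5 times.

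Leaving out 1 library gave 2818 to 2940 genes higher and 2007 to 2261 lower, 926 to 1071 and 640 to 800 for the difference from WT, 929 to 1104 and 766 to 1317 against 8 hpi, and 1068 to 1088 and 533 to 571 from 1 to 3 dpi. Replicate numbers only name libraries. The difference of replicate 1 minus 2 correlated between groups at -0.063 to 0.198 over 5082 genes, and at -0.009 between the uninjured and 1 dpi libraries. With a replicate block, 2859 genes were higher and 2052 lower, 1078 and 878 for the difference from WT, 1058 and 917 against 8 hpi and 1301 and 779 from 1 to 3 dpi.

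Of 2184 values of named genes, 2110 kept direction and call. The 26 that reversed were of genes that were not called. *THRA* was at 0.57 by total counts, 0.06 with either other filter, 0.02 in the fit of the compared libraries and with the block, and 0.33 and 0.20 without replicate 1 of the uninjured or 1 dpi group, with a range of -0.29 to 0.33 over the libraries left out. *HIF1A* was at 0.59 by total counts, 0.54 with either TPM scale, 0.01 with DESeq2, 0.08 with either other filter, 0.04 in the fit of the compared libraries and with the block, and 0.09 and 0.04 without uninjured replicate 1 or 2, with a range of -0.02 to 0.09. *TCF21* was at 0.33, 0.24 and 0.28 and *POSTN* (ENSDARG00000104267) at 0.28, 0.43 and 0.47 by total counts, log2(TPM + 1) and log2(TPM + 0.1), *pecam1a* at 0.03 by total counts, and *MPEG1* (ENSDARG00000043093) at -0.12 and -0.07 without uninjured replicate 2 or 1 dpi replicate 1. By total counts, *NCOR1* (-0.58), *hif1aa* (-0.96) and *MYH6* (-0.95) lost their calls, and *STAT3* (1.55), *VEGFA* (1.25), *DES* (1.31) and *tgfb1a* (1.21) passed the threshold. *PCNA* passed it in 10 alternatives, at 1.02 to 1.60. With log2(TPM + 1), which understates the change of low genes, calls were lost for *hif1aa* (-0.89), *cd74a* (-0.51), *NDUFS1* (-0.74), *TKT* (-0.30), *NCOR1* (-0.58), *MT-CO1* (-0.75), *mki67* (0.72), *CS* (-0.60), *NRG1* (0.50) and the difference from WT of *herc56.3* (-0.56). With log2(TPM + 0.1) they were lost for *cd74a* (-0.52), *NDUFS1* (-0.74), *NCOR1* (-0.63), *MT-CO1* (-0.75) and *CS* (-0.60). The list medians, taken relative to all genes, kept their sign by total counts and with DESeq2. Subtracting the median of all genes takes out most of the effect of total counts, so that this does not check the scaling. Under other alternatives some lists near 0 changed sign, among them the hypoxia list (-0.06 without 1 dpi replicate 1), the provisional matrix (-0.18 with at least 10 counts in every library) and the matrix proteases (-0.10 with log2(TPM + 1)). The sizes of the list medians were less stable. Over the alternatives, 318 list medians were counted as moved and 330 as the same. Where each library had to hold 10 counts, 44 lists moved and 10 did not, with shifts between -4.21 and 2.56. On log2(TPM + 1), 48 moved and 6 did not, with shifts between -3.23 and 0.68. By total counts 5 moved and 49 did not, with shifts between -0.26 and 0.02, again after that subtraction. Without it, some list medians changed sign by total counts. Those of the AP-1 and immediate early genes went from -0.46 to 0.14 and of mitophagy from -0.26 to 0.35. The causes were not tested, apart from the number of genes tested. Low counts limit the folds of genes near 0, and groups of 2 pools limit all tests.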
